A study of Mus musculus with 6 samples.

Results

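The genes described here are the nuclear-encoded protein subunits of complexes I, III and IV of the respiratory chain and of the ATP synthase (complex V), measured in smooth muscle cells (SMC) sorted from the vasculature of mouse skeletal muscle. They were chosen by name among the protein-coding genes of the deposited table: symbols that begin with Ndufa, Ndufb, Ndufc, Ndufs or Ndufv and a digit, with Uqcr, with Cox and a digit from 4 to 8, or with Atp5, leaving out Ndufa4l2 and Cox4i2. This gave 77 of the 32179 genes listed. Complex I has 35 of them, complex III 8, complex IV 17 and complex V 17, with Ndufa4 placed in complex IV, where its protein is known to sit. The comparison used the 73 with a mean of at least 10 across the libraries, namely 34, 8, 15 and 16 in complexes I, III, IV and V. The 4 left out were Atp5l, Cox8b, Ndufb4 and Cox7b2; the means nearest the threshold were 10.2 for Cox6b2, inside it, and 8 for Atp5l, outside it. Of the 77, 75 carry the oxidative phosphorylation term in the authors' deposited annotation, and the other 2, Atp5s and Atp5sl, are named after the ATP synthase without being subunits of it.

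The study compared iSM-G5C-KO mice, in which tamoxifen-induced recombination removes the orphan receptor gene Gprc5c from smooth muscle, with control mice, by bulk RNA sequencing of 3 libraries per group. All mice were C57BL6J males between 8 and 24 weeks of age with the mTmG reporter, which labels recombined cells with EGFP, and both groups were induced with tamoxifen. Cells that bound antibodies to CD31, CD45 or Ter119 were removed with magnetic beads, viable EGFP-positive cells were sorted, and 5 ng of total RNA went into each library. The controls carry a wild type genotype label, whereas the source label of every sample says Gprc5c-floxed, and the sources used here do not give the promoter that drives Cre. Whether each library is a separate animal is not stated in the labels; p-values therefore rest on library-to-library spread, part of which may be technical. In bulk RNA, fewer cells of a type and less RNA per cell cannot be told apart.

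Complex I passes electrons from NADH to ubiquinone, complex III hands them on to cytochrome c, and complex IV passes them to oxygen. Their proton pumping drives the rotary ATP synthase. Each complex is assembled from many nuclear-encoded subunits, and complexes I, III, IV and V also contain a few encoded by mitochondrial DNA, which were not analysed here. Contractile SMC are known to draw on both glycolysis and respiration, and several subunits of complex IV exist as paired isoforms, a common one and one restricted to heart and skeletal muscle or induced in low oxygen.

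Values are normalised counts, read counts per gene that the authors scaled by library and rounded to whole numbers, from an estimated 1480127 to 2581454 reads in the KO libraries and 1556750 to 2935114 in the controls. Control library 3 stood apart with 29707 genes above 0, against 20481 to 21179 in the other 5 libraries. Only the median over the members, Uqcrc1 and Uqcrfs1 are given without this library alone, so other results may depend on it. Gprc5c (chr11:114851173-114872617) had 328, 305 and 360 normalised counts in KO libraries 1, 2 and 3 and 428, 532 and 497 in control libraries 1, 2 and 3. All 3 KO values lay below all controls, at 68.2% of the control mean, with a log2 fold change of -0.55 ± 0.13 (SE) and a limma adjusted p of 0.999 (0.142 with the replicate number as a block; exact 2-sided permutation p = 0.1, the smallest that 3 against 3 libraries allow). The 15 contractile smooth muscle markers were all read, with summed normalised counts of 17013 to 19500 in KO and 18986 to 19895 in control libraries, and the 9 pericyte markers summed to 11070 to 18466 in KO and 10391 to 15993 in control libraries. The 20 skeletal muscle fibre markers summed to 2712, 5522 and 10074 in KO libraries 1, 2 and 3 and to 2010, 3327 and 4778 in the controls, and none was at 0. The 15 endothelial markers summed to 949 to 1887 in KO and 904 to 1463 in control libraries, and the 10 leukocyte markers to 58 to 265 in KO and 57 to 278 in control libraries, with the T cell gene Cd3e at 0 in KO library 2 and control library 2. The 10 fibroblast markers summed to 6790 to 11029 in KO and 7883 to 12057 in control libraries. In the KO, the mean log2 value was higher for all 9 pericyte, all 14 tested endothelial and 17 of 20 fibre markers. It was lower for 14 of 15 contractile and 9 of 10 fibroblast markers, and higher for 3 of 5 tested leukocyte markers. Over all tested genes, 6391 were higher and 6344 lower. No marker in these lists had a limma adjusted p under 0.05. The part of these cell types in the results below was not tested.

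Promoter sequence was available for 63 of the 77 genes in the RefSeq tables (GRCm38.p6; 250 bases before to 50 after each start). NRF1, YY1 and ETS-family factors are known regulators of respiratory chain genes, and 27 of the 63 genes held at least 1 of their motifs, searched on both strands. The NRF1 motif GCGCANGCG was in the promoters of 18 genes (28.6%), against 7.03% of all 27025 genes with promoter sequence. Those genes were not matched to the members in level. The YY1 motif AAGATGGCG was in 7 (11.1%), against 1.64% of the same 27025 genes, and the ETS motif CCGGAAGT in 5 (7.94%), against 4.31%. The motif of the estrogen-related receptors, TCAAGGTCA, was in 1 (1.59%, against 0.466%), and the Sp motif GGGGCGGGG in 9 (14.3%, against 12.9%). A single gene held both NRF1 and YY1 motifs, 2 held both NRF1 and ETS, and none held both YY1 and ETS. The matches are descriptions of these letters and not sites of binding. To show the motifs in each complex, the 120 bases before the RefSeq start of 6 of these genes follow, 5′ to 3′ on the gene's strand, with the matches in capitals. Ndufa11, Cox6a1 and Atp5k carry NRF1 motifs, Uqcr11 and Uqcrh ETS motifs, and Atp5j a YY1 motif.
Ndufa11, chr17:56717642-56717761, plus strand: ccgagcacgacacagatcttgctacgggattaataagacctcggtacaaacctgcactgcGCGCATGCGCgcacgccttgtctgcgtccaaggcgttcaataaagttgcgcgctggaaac
Uqcr11, chr10:80406822-80406941, minus strand: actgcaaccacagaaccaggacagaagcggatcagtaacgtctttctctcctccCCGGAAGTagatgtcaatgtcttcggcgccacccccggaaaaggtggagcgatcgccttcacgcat
Uqcrh, chr4:116075071-116075190, minus strand: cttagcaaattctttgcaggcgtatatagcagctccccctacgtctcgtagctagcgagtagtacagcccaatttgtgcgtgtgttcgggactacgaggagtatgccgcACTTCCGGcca
Cox6a1, chr5:115348959-115349078, minus strand: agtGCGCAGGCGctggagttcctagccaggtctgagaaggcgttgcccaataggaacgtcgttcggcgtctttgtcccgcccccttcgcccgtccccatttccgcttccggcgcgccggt
Atp5k, chr5:108434400-108434519, minus strand: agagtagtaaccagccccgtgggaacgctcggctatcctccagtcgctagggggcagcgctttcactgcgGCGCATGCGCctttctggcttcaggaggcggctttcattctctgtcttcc
Atp5j, chr16:84834977-84835096, minus strand: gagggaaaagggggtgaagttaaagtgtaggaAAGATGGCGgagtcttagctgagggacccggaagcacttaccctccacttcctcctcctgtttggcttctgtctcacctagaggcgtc

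No respiratory chain gene passed the test in either direction. In limma on log2(value + 1) with Benjamini-Hochberg adjustment over all 12735 tested genes, 0 of 73 had an adjusted p under 0.05, and the share over all tested genes was 0%. At an unadjusted p under 0.05 there were again 0 of 73, against 230 genes (1.81%) over the whole table. With the library number as a block, 0 of 73 passed after adjustment (0.00785% of all genes) and 0 of 73 before it (10.2% of all genes). In the KO, 36 members had a higher mean log2 value and 37 a lower one. The median log2 fold change was -0.0042 over the members and 0.0011 over all tested genes, and single members ranged from -0.47 (Cox6b2) to 0.21 (Ndufa1). The medians were -0.012 for complex I, -0.028 for complex III, 0.0021 for complex IV and 0.011 for complex V.

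The members were measured with narrower intervals, at the median, than all genes. The 95% confidence intervals of the fold change came from the main fit, without the library number as a block. They were taken gene by gene and not adjusted for the number of genes. The interval lay within 1.5-fold in both directions for 62 of the 73 members (84.9%), against 5654 of all 12735 genes (44.4%). It did so for 30 of 34 members of complex I, 7 of 8 of complex III, 11 of 15 of complex IV and 14 of 16 of complex V. The 11 whose intervals reached past 1.5-fold were Ndufa1, Ndufb2, Ndufc1 and Ndufs5 in complex I, Uqcr11 in complex III, Ndufa4, Cox6a2, Cox6b2 and Cox7a1 in complex IV, and Atp5g2 and Atp5s in complex V. For these genes the interval includes changes of more than 1.5-fold in at least 1 direction. The median half-width of the interval was 0.36 on the log2 scale for members and 0.49 for all genes. All genes were not matched to the members in level: 58 of the 73 members and 8514 of the 12735 genes had a mean of at least 50.

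**Figure D1:**
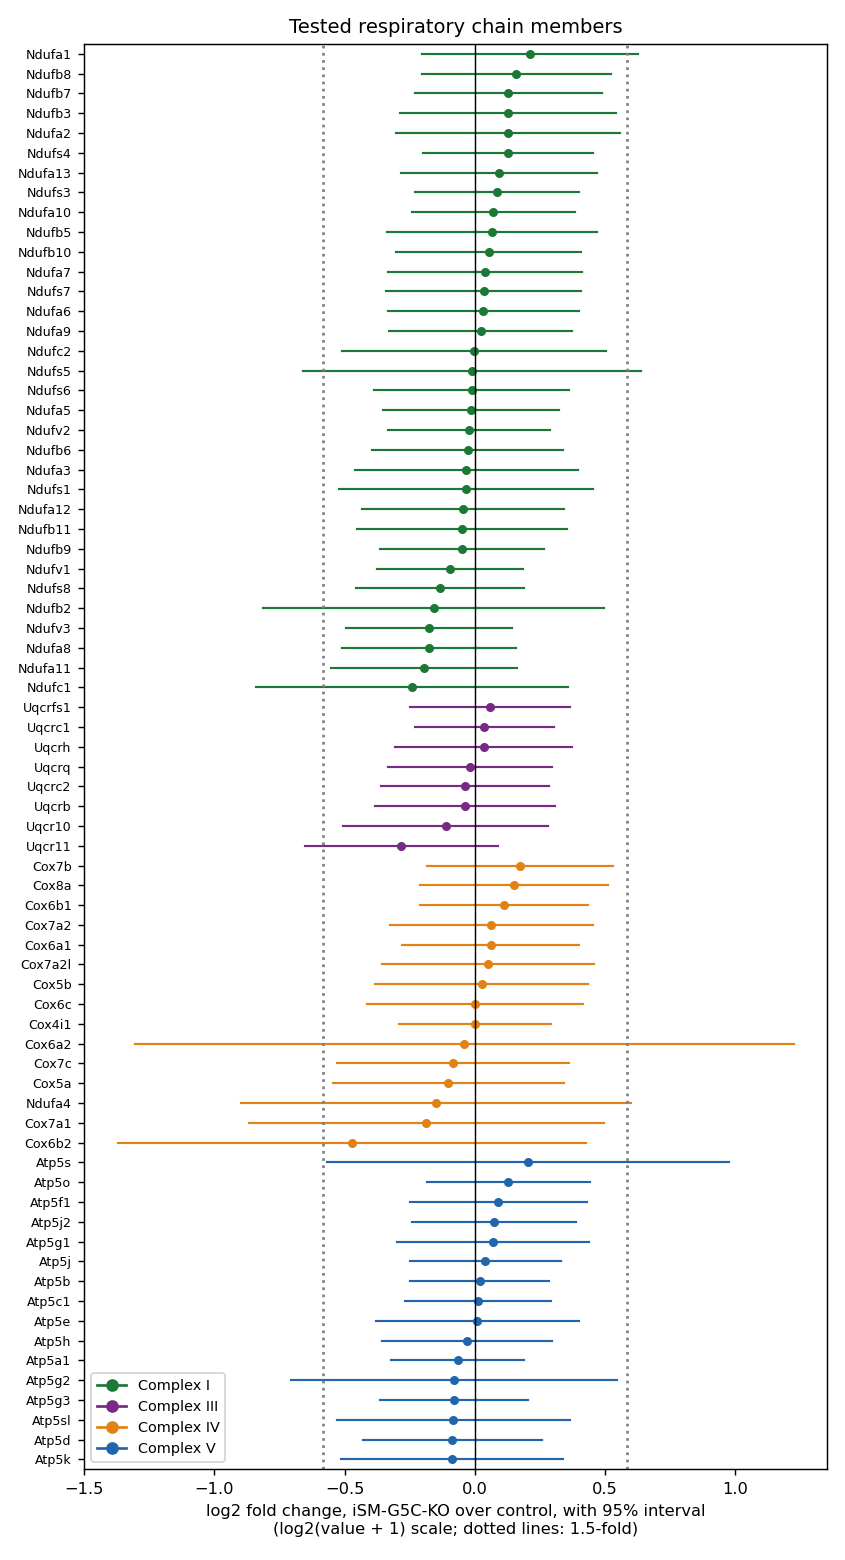
Log2 fold change (iSM-G5C-KO over control, log2(value + 1) scale) of 72 of the 73 tested members with 95% confidence intervals from limma (3 libraries per group), coloured by complex, with dotted lines at 1.5-fold. Every interval drawn crosses 0, 61 lie between the dotted lines, and the widest belong to the low genes Cox6a2 and Cox6b2.

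In complex I, 15 tested members were higher and 19 lower in the KO, and none had groups that did not overlap. By its functional parts, the 10 genes of the NADH-oxidising N module had a median log2 fold change of -0.017, the 6 of the quinone-binding Q module 0.0046, the 9 of the proximal membrane arm -0.011 and the 9 tested genes of the distal membrane arm 0.053. Ndufa1, an X-linked membrane-arm subunit needed for assembly of the complex, had 50, 44 and 45 normalised counts in KO libraries and 45, 37 and 38 in controls. It was higher in the KO library of every number, but the groups overlapped, with a log2 fold change of 0.21 ± 0.18 (SE; limma adjusted p = 0.999). Ndufb8, of the distal membrane arm, had 83, 90 and 109 normalised counts in KO libraries and 85, 89 and 77 in controls, where KO libraries 2 and 3 lay above all controls and KO library 1 below 2 of them. In the other direction, Ndufv3, an accessory subunit of the N module, had 155, 143 and 144 normalised counts in KO libraries and 159, 193 and 150 in controls. Ndufa11, an accessory subunit of the proximal membrane arm, had 73, 72 and 92 in KO libraries and 85, 91 and 94 in controls. Each of this pair had the lower value in the KO library of every number, with overlapping groups and log2 fold changes of -0.18 ± 0.14 for Ndufv3 and -0.19 ± 0.15 for Ndufa11 (SE; limma adjusted p = 0.999 for both). Ndufb4, another subunit of the distal arm, was hardly read, with 5, 6 and 8 normalised counts in KO libraries and 5, 2 and 8 in controls.

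In complex III, 3 members were higher and 5 lower in the KO. Uqcr11 (chr10:80402997-80406830, minus strand), one of the smallest subunits of the complex, had 48, 47 and 48 normalised counts in KO libraries and 58, 64 and 53 in controls. It was the only one of the 73 members whose groups did not overlap: 1 of 73 was lower in this sense, against 2.21% of all tested genes, and 0 of 73 were higher, against 2.69%. Its mean was 47.7 ± 0.577 in KO and 58.3 ± 5.51 in control libraries (SD, n = 3 each), the log2 fold change was -0.28 ± 0.16 (SE), and the limma adjusted p was 0.999, or 0.617 with the library number as a block. Uqcr10, likewise a very small subunit, had 58, 55 and 67 normalised counts in KO libraries and 69, 70 and 56 in controls, with overlapping groups. Uqcrc1, a core protein related to the mitochondrial processing peptidases, had 288, 275 and 293 in KO libraries and 294, 290 and 252 in controls. Uqcrfs1, the Rieske iron-sulphur protein that takes electrons from ubiquinol, had 152, 147 and 154 in KO libraries and 158, 153 and 126 in controls. In both, control library 3 alone lay below every KO value, and without it the log2 fold changes turned to -0.034 for Uqcrc1 and -0.042 for Uqcrfs1. Uqcrh, the hinge protein that binds cytochrome c1 and has the highest level per kilobase in the complex, had 140, 121 and 160 normalised counts in KO libraries and 137, 146 and 126 in controls, where KO libraries held both the lowest and the highest value.

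In complex IV, 9 tested members were higher and 6 lower in the KO. Cox4i1, the common isoform of the largest nuclear-encoded subunit and the complex IV gene with the highest level per kilobase, had 189, 195 and 232 normalised counts in KO libraries and 202, 213 and 198 in controls, means of 205 ± 23.3 in KO and 204 ± 7.77 in control libraries (SD, n = 3 each). Its log2 fold change was 0.0018, with a 95% interval from -0.29 to 0.29. Cox7b, an X-linked structural subunit, had 82, 78 and 97 normalised counts in KO libraries and 82, 76 and 69 in controls. Cox8a, the common isoform of the smallest subunit, had 114, 115 and 155 in KO libraries and 113, 116 and 113 in controls. In both genes KO library 3 was the highest of the 6, and the groups overlapped. Cox7a2l, counted here with complex IV, had 71, 71 and 56 normalised counts in KO libraries and 62, 72 and 57 in controls, with no separation of the groups.

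The restricted isoforms of complex IV were read below their common partners, per kilobase, in every library. Cox6a2, the heart and skeletal muscle partner of Cox6a1, had 6, 20 and 14 normalised counts in KO libraries and 7, 14 and 19 in controls, and Cox6a1 had 111, 117 and 113 in KO libraries and 119, 118 and 92 in controls. Per kilobase, the ratio of Cox6a2 to Cox6a1 was between 0.045 and 0.14 in KO libraries and between 0.049 and 0.17 in controls. Both libraries numbered 1, which had the smallest fibre sums, held the lowest ratios. Cox7a1, another isoform of heart and skeletal muscle, had 15, 12 and 18 normalised counts in KO libraries and 17, 17 and 17 in controls, and its common partner Cox7a2 had 87, 71 and 92 in KO libraries and 89, 80 and 70 in controls. Their per-kilobase ratio was 0.29, 0.28 and 0.33 in KO libraries and 0.32, 0.36 and 0.41 in controls, so here KO library 2 was lowest. Cox8b, the third such isoform, had 4, 8 and 7 in KO libraries and 2, 8 and 7 in controls, at per-kilobase ratios to Cox8a of 0.054 to 0.11 in KO libraries and 0.027 to 0.11 in controls. The summed normalised count of Cox6a2, Cox7a1 and Cox8b was 25, 40 and 39 in KO libraries and 26, 39 and 43 in controls. In both groups this sum was lowest in library 1. Among the fibre markers, Ttn, the giant sarcomere protein, had 660, 1638 and 5386 normalised counts in KO libraries and 422, 442 and 868 in controls, with KO library 3 far above the other 5. Acta1, skeletal actin, had 240, 421 and 399 in KO libraries and 202, 348 and 488 in controls, and Ckm, muscle creatine kinase, 106, 249 and 200 in KO libraries and 80, 212 and 267 in controls. The part of fibre RNA in the levels of the isoforms was not tested.

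Cox6b2, the testis-type partner of Cox6b1, had the lowest log2 fold change of all tested members, -0.47 ± 0.39 (SE; limma adjusted p = 0.999), from 7, 8 and 10 normalised counts in KO libraries and 10, 11 and 15 in controls. Its groups touched at 10, the value of KO library 3 and control library 1. Cox6b1 itself had 82, 81 and 84 normalised counts in KO libraries and 84, 73 and 72 in controls. Cox7b2 was at 0 in all libraries but control library 3, which held 1. Among the genes outside the rule, Ndufa4l2, induced by hypoxia and a known pericyte marker, had 195, 262 and 378 normalised counts in KO libraries and 194, 230 and 313 in controls. In both groups library 1 held its lowest and library 3 its highest value, as for the summed pericyte markers, among which it is counted. Its log2 fold change was 0.16 (limma adjusted p = 0.999). Ndufa4, its common paralogue, had 45, 30 and 35 normalised counts in KO libraries and 54, 48 and 25 in controls. Per kilobase Ndufa4l2 exceeded Ndufa4 in all 6 libraries, by 2.83 to 7.05 times in KO and 2.35 to 8.18 times in control libraries. Cox4i2, the oxygen-responsive paralogue of Cox4i1, had 116, 159 and 234 normalised counts in KO libraries and 124, 148 and 164 in controls. Its level per kilobase relative to Cox4i1 was 0.63, 0.84 and 1.03 in KO libraries and 0.63, 0.71 and 0.85 in controls, with library 1 lowest and library 3 highest in both groups.

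**Figure D2:**
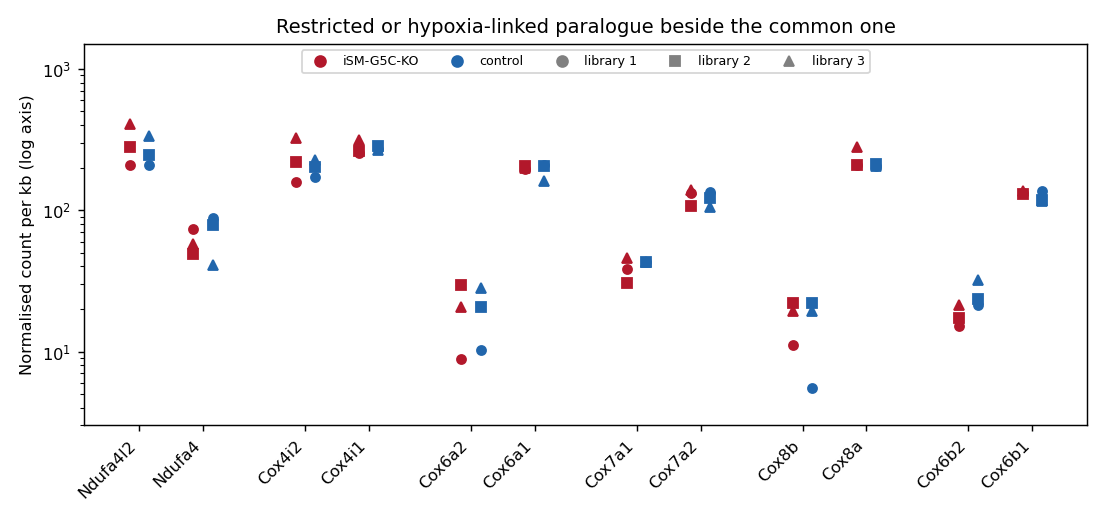
Normalised count per kilobase of transcript (log axis) of 6 isoform pairs in each library, with iSM-G5C-KO left of control and the shape giving the library number. Ndufa4l2 lies above Ndufa4 and Cox4i2 near Cox4i1 in both groups, whereas Cox6a2, Cox7a1, Cox8b and Cox6b2 lie below their partners in every library.

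In complex V, 9 tested members were higher and 7 lower in the KO. Atp5b, the catalytic beta subunit of the rotary head and the member with the highest level per kilobase of all 77, had 727, 694 and 822 normalised counts in KO libraries and 734, 752 and 723 in controls, means of 748 ± 66.5 in KO and 736 ± 14.6 in control libraries (SD, n = 3 each). Its log2 fold change was 0.018, with a 95% interval from -0.25 to 0.28. Atp5a1, the alpha subunit beside it, had 627, 608 and 682 normalised counts in KO libraries and 693, 678 and 634 in controls, with overlapping groups and an interval from -0.32 to 0.19. The ratio of Atp5b to the gamma subunit gene Atp5c1 per kilobase stayed between 1.62 and 1.71 in KO libraries and between 1.59 and 1.69 in controls. Atp5o, of the stalk that holds the head in place, had 128, 136 and 143 normalised counts in KO libraries and 133, 131 and 109 in controls. Atp5f1, of the same stalk, had 144, 138 and 172 in KO libraries and 146, 155 and 125 in controls. Both overlapped between groups, and in both the lowest value was that of control library 3. The membrane ring is built from 1 mature protein encoded by 3 genes. Of these, Atp5g3 had 169, 151 and 181 normalised counts in KO libraries and 184, 169 and 176 in controls, Atp5g1 had 47, 49 and 50 in KO libraries and 48, 47 and 44 in controls, and Atp5g2 had 17, 17 and 15 in KO libraries and 19, 17 and 16 in controls. Per kilobase Atp5g3 was read 2.57 to 3.02 times as high as Atp5g1 in KO libraries and 3 to 3.34 times in controls. Reads of Atp5g1 and Atp5g2 are uncertain: 66.0% and 100% of the 50-base windows of their transcripts also occur at another annotated locus. Atp5s, a factor that is no subunit of the enzyme, had the lowest level per kilobase in the complex, with 14, 20 and 20 normalised counts in KO libraries and 11, 19 and 17 in controls.

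The summed level of the members varied between the libraries of each group by more than the group means differed. Summed over all 77, they had 8775, 8415 and 9419 normalised counts in KO libraries 1, 2 and 3 and 9295, 9197 and 8234 in control libraries 1, 2 and 3, or 0.409%, 0.414% and 0.455% of the KO libraries and 0.419%, 0.446% and 0.399% of the controls. The mean share was 0.426% ± 0.025 in KO and 0.421% ± 0.024 in control libraries (SD, n = 3 each), a difference smaller than either spread. KO library 3 gave the highest of the 6 values for 32 of the 73 tested members (43.8%, against 21.3% of all tested genes), and control library 3 gave the lowest for 31 (42.5%, against 16.1%). Between libraries of the same number, the median difference in log2 value, KO minus control, was -0.081 for number 1, -0.13 for number 2 and 0.18 for number 3. It was positive for 14, 20 and 59 of the 73 members, whereas the medians over all tested genes were -0.023, 0 and 0.016. Some related lists also changed sign at number 3. Medians were -0.034, -0.13 and 0.22 for complex II and -0.065, -0.19 and 0.097 for the tricarboxylic acid cycle. They were -0.065, -0.053 and 0.25 for carriers and pores and -0.074, -0.066 and 0.13 for complex I assembly factors. Biogenesis regulators stayed below 0 (-0.13 at number 3), and import genes were above 0 at numbers 2 (0.080) and 3 (0.31). The change of sign at number 3 was present in each of complexes I, III, IV and V, with medians of 0.18, 0.24, 0.22 and 0.18 there. Without control library 3 the median log2 fold change over the members was -0.044, and without KO library 3 it was -0.063. Both libraries numbered 3 were the shallowest of their group, control library 3 was the one with more genes above 0, and KO library 3 had the largest fibre marker sum of the 6. That sum includes the high value of Ttn. Of the 20 fibre markers, 15, 17 and 8 were higher in the KO than in the control library at numbers 1, 2 and 3. The part of these features in the pattern at number 3 was not tested.

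**Figure D3:**
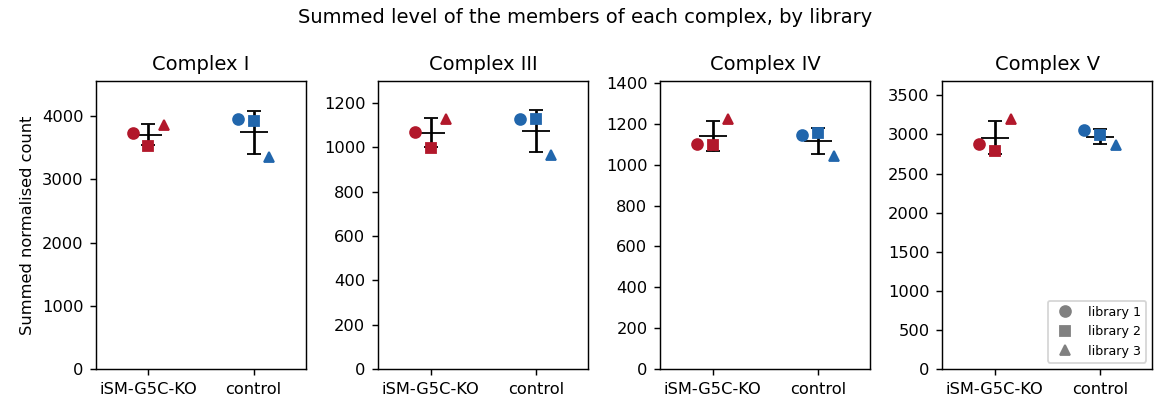
Summed normalised count of the members of complexes I, III, IV and V in each library, iSM-G5C-KO left of control, with the mean and SD of 3 libraries as bars and the shape giving the library number. In all 4 panels KO library 3 is the highest of its group and control library 3 the lowest of its group, and the groups overlap.

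**Figure D4:**
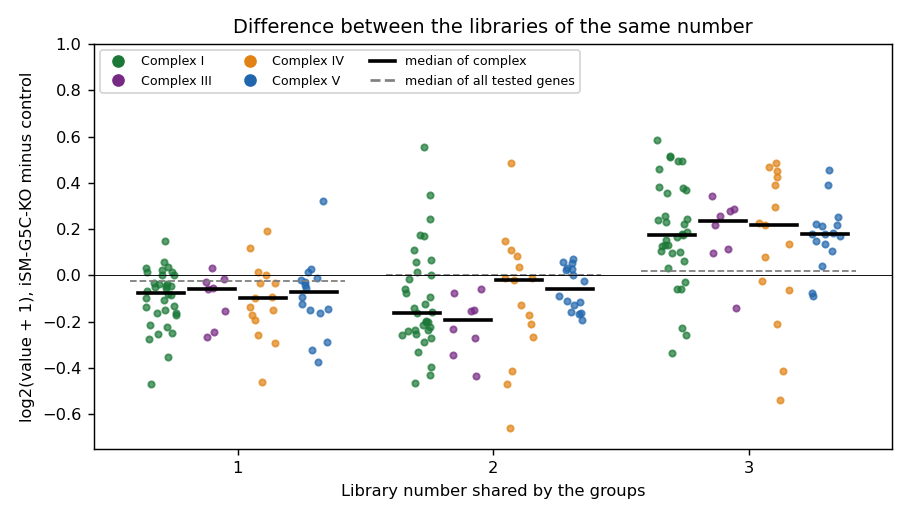
Difference in log2(value + 1), iSM-G5C-KO minus control, between libraries of the same number for each tested member, coloured by complex, with the median of each complex as a bar and that of all 12735 tested genes as a dashed line. The medians of all 4 complexes lie below 0 at numbers 1 and 2 and above 0 at number 3.

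Several further features were shared by the members. They lay on 19 chromosomes, with 3 members on X, and their transcripts were short, with a median of 714 bases against 2993 bases for tested protein-coding genes (1 GENCODE M21 transcript per gene). Their levels per kilobase were high: the median over the 73 tested members was 112 normalised counts per kilobase, against 35.9 over 11702 tested protein-coding genes, and 68 of the 73 lay above that median. The lowest level per kilobase in complex I was 5.84 (Ndufb4). In the other complexes the level ranged from 109 (Uqcrfs1) to 253 (Uqcrh) in complex III, from 0.31 (Cox7b2) to 275 (Cox4i1) in complex IV and from 11.3 (Atp5s) to 387 (Atp5b) in complex V. Many members have processed copies elsewhere in the genome, and 34 of 77 had at least 1 window of 50 bases that also occurs at another locus. Atp5l had 68.5% of its windows shared, Cox7c 53.0%, Atp5h 50.5%, Uqcrb 43.2%, Ndufs5 41.2% and Ndufb4 37.0%. Across the 77 members, which share their libraries, Spearman's rho between the share of such windows and the level per kilobase was -0.12. The transcripts of 25 members overlap an exon on the opposite strand and 5 overlap one on the same strand. The sources used here do not say whether counting used strand, so these levels are uncertain to that extent.

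Among the members with promoter motifs, the median log2 fold change was -0.013 for the 16 tested genes with an NRF1 motif, 0.034 for the 7 with a YY1 motif and 0.035 for the 5 with an ETS motif, which included Uqcr11 and Uqcrh from the sequences above.

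The other genes of respiration and mitochondrial upkeep were described in the same way, and none of these lists held a gene past the adjusted threshold. Complex II had 2 members higher and 2 lower in the KO. Its iron-sulphur subunit Sdhb had 153, 161 and 179 normalised counts in KO libraries and 169, 156 and 114 in controls, and its membrane anchor Sdhd had 132, 122 and 119 in KO libraries and 133, 135 and 99 in controls. In both, control library 3 was again the lowest of the 6. Cyc1, the cytochrome c1 of complex III, which the name rule does not reach, had 196, 170 and 214 in KO libraries and 194, 198 and 161 in controls. Cycs, cytochrome c itself, had 101, 73 and 80 in KO libraries and 100, 82 and 70 in controls, with log2 fold changes of 0.068 for Cyc1 and 0.013 for Cycs.

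Of 15 tested complex I assembly factors, 4 were higher and 11 lower. Foxred1, one of them, had 88, 62 and 55 normalised counts in KO libraries and 110, 101 and 88 in controls, a log2 fold change of -0.56 ± 0.20 (SE; limma adjusted p = 0.999). The groups met only at 88, the value of KO library 1 and control library 3. Tmem126b, of the intermediate assembly complex, had 61, 58 and 63 in KO libraries and 77, 71 and 73 in controls, so all KO values lay below all controls, with a log2 fold change of -0.28 ± 0.14 (SE; limma adjusted p = 0.999). Of 5 tested complex III assembly factors, 3 were higher and 2 lower. Uqcc3 had 28, 50 and 50 normalised counts in KO libraries and 29, 36 and 36 in controls, and Uqcc2 had 39, 44 and 48 in KO libraries and 45, 40 and 29 in controls, with overlap in both. Of 18 tested complex IV assembly factors, 10 were higher and 8 lower. Sco1, a copper chaperone of the complex, had 33, 40 and 39 in KO libraries and 19, 35 and 11 in controls, and Cmc1 had 23, 30 and 27 in KO libraries and 17, 16 and 20 in controls. The groups of Cmc1 did not overlap and those of Sco1 did, with log2 fold changes of 0.57 ± 0.25 for Cmc1 and 0.90 ± 0.39 for Sco1 (SE; limma adjusted p = 0.999 for both). Of 5 assembly factors and inhibitors of complex V, 3 were higher and 2 lower. Atpif1, the inhibitor of the enzyme's reverse reaction, had 121, 121 and 154 normalised counts in KO libraries and 109, 122 and 114 in controls. Atpaf2, an assembly factor, had 54, 59 and 62 in KO libraries and 52, 50 and 50 in controls, which did not overlap. In all, groups did not overlap for 1 higher and 1 lower of the 15 complex I factors. The same held for 2 of the 18 complex IV factors and 1 of the 5 complex V genes, all higher, and for 0 of the 5 complex III factors. Over all tested genes the shares were 2.69% higher and 2.21% lower.

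Among 16 regulators of mitochondrial biogenesis, 4 were higher and 12 lower in the KO, with a median log2 fold change of -0.088. Ppargc1a, the coactivator that drives respiratory gene expression in muscle, had 107, 28 and 24 normalised counts in KO libraries and 148, 73 and 38 in controls. It was lower in the KO library of every number, yet the 3 numbers spread widely and the groups overlapped, with a log2 fold change of -0.82 ± 0.65 (SE; limma adjusted p = 0.999, or 0.229 with the library number as a block). Polg2, a subunit of the mitochondrial DNA polymerase, had 33, 37 and 35 in KO libraries and 39, 38 and 60 in controls, all KO values below all controls by at least 1 normalised count. Of the 16 regulators, 2 were lower without overlap, against 2.21% of all tested genes, and 0 were higher, against 2.69%. In the tricarboxylic acid cycle 2 of 14 genes were higher and 12 lower, with log2 fold changes from -0.14 to 0.076 and a median of -0.061. The direction was not the same throughout: KO minus control was positive for 4, 0 and 12 of the 14 at library numbers 1, 2 and 3. Idh3g, of the NAD-dependent isocitrate dehydrogenase, had 234, 198 and 200 normalised counts in KO libraries and 241, 247 and 210 in controls. Its groups overlapped, and each KO library lay below the control of the same number.

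Of 16 tested import genes, 14 were higher and 2 lower in the KO, with a median log2 fold change of 0.15. All tested genes split into 6391 higher and 6344 lower. By library number, KO minus control was positive for 7, 11 and 14 of the 16 import genes at numbers 1, 2 and 3. Timm50, a receptor of the inner membrane translocase, had 45, 64 and 64 normalised counts in KO libraries and 47, 50 and 38 in controls, and Timm44, which tethers its motor, had 165, 173 and 181 in KO libraries and 155, 170 and 135 in controls. Of 6 carriers and pores, 4 were higher and 2 lower, including Vdac3, an outer membrane channel, with 62, 71 and 66 in KO libraries and 63, 65 and 46 in controls, and Slc25a4, the ADP/ATP carrier of muscle, with 417, 401 and 487 in KO libraries and 396, 416 and 402 in controls. All of these overlapped between groups. Of 77 mitochondrial ribosomal protein genes, 54 were higher and 23 lower (median 0.061), with positive differences for 33, 34 and 47 at numbers 1, 2 and 3. A higher count was not particular to mitochondrial lists. Of 79 tested cytosolic ribosomal protein genes, 66 were higher and 13 lower (median 0.080).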

How the data were processed

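RNA was measured in 6 bulk libraries, 3 iSM-G5C-KO and 3 control, grouped by the sample labels. Per the submitters' processing notes, DESeq2 1.18.1, featureCounts 1.6.5, STAR 2.6.1d and Trimmomatic 0.39 were used, with mm10 and GRCm38.p5 as builds. The deposited table holds a score, in which the authors divided each gene's reads by 1 factor per library and rounded, as the spacing of low values shows, so no count model was used. The worth of 1 read, from 0.755 to 1.40 across libraries, gave the estimated depths; low genes are the least precise.

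Log2(value + 1) was tested 2-sided with limma 3.58.1 (R 4.3.3; prior variance with an intensity trend) on 12735 genes with a mean of at least 10, with Benjamini-Hochberg adjustment at 0.05. The fit was run on simulated data only to check that it ran correctly, which does not measure its power in these libraries. Fold changes on this scale understate the change of low genes. Levels per kilobase use 1 GENCODE M21 transcript per gene, taken by APPRIS tag, then support level, then the shorter one.

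The groups share library numbers. Libraries with the same number deviated together from their group means (correlations of 0.59, 0.31 and 0.44 across genes, against at most 0.16 for unlike numbers). The numbers were therefore taken to pair libraries, on the data alone, as the labels give them no meaning. The fit with the number as a block was an alternative, beside other pseudocounts, filters, scalings, weights, a length correction and each library left out.

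The members and lists were chosen with earlier results of these data known, and counts of list members are descriptions without a test. Named were the 2 members with the smallest p per direction in each complex, those with the highest and lowest level, the tissue isoforms, and up to 2 genes per other list. Some genes that this rule selects are not reported here, and mitochondrially encoded genes were not analysed here.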

Additional observations from a re-analysis of the deposited data

How the results depend on the processing

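The count of members past the adjusted threshold was 0 higher and 0 lower under all 19 alternatives. At an unadjusted p under 0.05 it was 2, Ndufv3 and Uqcr11, with sample quality weights, where the smallest limma adjusted p of a member was 0.204, and 0 under the other alternatives. Over all genes the count of 0 became 2 with sample quality weights, 1 with the replicate block, and 17 and 1 in the replicate block without replicate 1 and without replicate 2; no member was among them. The pairing of libraries by number changed no other call. The median log2 fold change of the members ranged from -0.063 to 0.032 when single libraries were left out. It was -0.045 with sample quality weights, 0.0086 with upper-quartile scaling, and -0.10 in the replicate block without replicate 3. Removing the length trend gave -0.045.

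Sign changes touched 21 of the named genes, with sign-changed values of at most 0.41 in size on the log2 scale. With TMM factors Cox4i1 was -0.00047. With the length trend removed, Uqcrh was -0.018, Cox4i1 -0.045, Atp5b -0.00077, Cox6a1 -0.0030, Sdhd -0.017 and Cycs -0.018. With sample quality weights, Uqcrfs1 was -0.011, Uqcrc1 -0.026, Uqcrh -0.10, Cox4i1 -0.045, Atp5f1 -0.035, Atp5b -0.031, Cox6a1 -0.0035, Cox6a2 0.20, Cox7a2 -0.026, Cox7a2l -0.070, Sdhd -0.10, Cyc1 -0.072 and Cycs -0.077. In the replicate block without replicate 1, Cox6a2 was 0.035 and Cox7a2l -0.022, and without replicate 2 Uqcr10 was 0.0040. In the replicate block without replicate 3, Ndufb8 was -0.0090, Uqcrfs1 -0.056, Uqcrc1 -0.053, Uqcrh -0.12, Cox4i1 -0.11, Atp5o -0.00061, Atp5f1 -0.093, Atp5b -0.065, Cox6a1 -0.056, Cox6a2 0.15, Cox7a2 -0.10, Sdhb -0.049, Sdhd -0.078, Cyc1 -0.10, Cycs -0.076 and Uqcc2 -0.034.

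Leaving out single libraries gave ranges across 0 for Uqcrfs1 (-0.042 to 0.12), Uqcrc1 (-0.034 to 0.077), Uqcrh (-0.064 to 0.14), Cox4i1 (-0.089 to 0.058), Atp5f1 (-0.0047 to 0.16), Atp5s (-0.015 to 0.37), Atp5b (-0.052 to 0.070), Cox6a1 (-0.060 to 0.12), Cox6a2 (-0.41 to 0.41), Cox7a2 (-0.026 to 0.17), Cox7a2l (-0.026 to 0.16), Sdhd (-0.11 to 0.11), Cyc1 (-0.026 to 0.16), Cycs (-0.12 to 0.14), Ndufa4l2 (-0.091 to 0.38) and Cox4i2 (-0.088 to 0.42). The cause of these changes was not tested. Members with few reads, such as Cox6a2 and Cox6b2, have the widest intervals at this depth.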
